A study of Mus musculus with 14 samples.

Results

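Kcnk6, Kcnk13, Kcna3, Kcnj2, Trpv2, Trpm2 and Trpm7 are 7 of the 14329 genes with deposited values, and they were chosen by symbol as potassium and transient receptor potential (TRP) channel genes of microglia. All 7 were present, and all 7 passed the filter on low counts that left 12645 genes to be tested. Microglia were sorted as CD45low CD11b+ CX3CR1+ cells, with a gate that also left out Ly6C+ and CCR2+ cells, from the dorsal horn of the spinal cord, 2000 cells per sample, and their RNA was sequenced in 14 libraries. WT mice on the C57BL/6 background and TASTPM mice on the same background, all 6 months old, received either K/BxN serum or control serum and were examined at day 5. TASTPM mice carry mutant human transgenes of familial Alzheimer's disease, each driven by the Thy-1 promoter, which is active in neurons, so the model places its transgenes outside microglia. K/BxN serum transfer (K/BxN ST) passes on the autoantibodies of arthritic mice and gives joint inflammation, while Control ST used serum of mice that do not develop it. There were 3 libraries of WT Control ST, 4 of WT K/BxN ST, 3 of TASTPM Control ST and 4 of TASTPM K/BxN ST. Both sexes were used, and the sex behind each library was not analysed here.

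Potassium channels set the resting potential of a cell, and in microglia they shape process movement, surveillance and the release of cytokines. Kcnk13 encodes THIK-1, a tandem-pore (K2P) channel that carries the resting potassium current of microglia and is opened through the purine receptor P2RY12. Kcnk6 encodes TWIK2, another K2P channel, known in macrophages as a route of the potassium efflux that precedes assembly of the NLRP3 inflammasome. Kcna3 encodes the voltage-gated channel Kv1.3 and Kcnj2 the inward rectifier Kir2.1, which are the classical potassium currents of cultured microglia. TRP channels pass cations: TRPV2 serves phagocytosis in macrophages, TRPM2 opens on oxidative stress, and TRPM7 joins a magnesium and calcium permeable pore to a kinase domain.

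Values are normalised counts, reads per gene after the authors' scaling of each library, and the libraries held 14223015 to 20239175 reads on genes. All 10 microglia markers were detected in every library. In 4 libraries, WT K/BxN ST 1 and 2 and TASTPM K/BxN ST 1 and 2, the summed monocyte and neutrophil markers took 5.37%, 3.19%, 5.58% and 3.51% of the values, against 0.0588% to 0.142% in the other 10. In the same 4 libraries the microglia markers took 3.17%, 4.77%, 2.02% and 4.24% of the values, against 5.71% to 7.41% elsewhere. All 10 monocyte markers had at least 3 reads in each of the 4, and in the other 10 libraries 5 to 9 of them did. Of the neutrophil markers, 10 had at least 3 reads in 3 of these libraries, 7 in WT K/BxN ST 2 and 1 to 8 in the other 10 libraries. They took 1.23% to 1.36% of the values in those 3 libraries, 0.0219% in WT K/BxN ST 2 and at most 0.0162% in the other 10, so WT K/BxN ST 2 stood apart by its monocyte markers, at 3.17%. Vcan, which marks monocytes, reached at most 5.97 normalised counts in the other 10 libraries. Of the genes of the 2 proteins that the gate left out, which inflammatory monocytes carry on their surface, Ly6c2 had 12898 to 29133 normalised counts in the 4 libraries against 1.87 to 17.8 in the other 10, and Ccr2 had 8537 to 27035 against 3.13 to 86.0. Border macrophage markers took 0.093% to 0.221% in these 4 libraries against 0.0188% to 0.049% in the other 10. This list shares F13a1 with the monocyte list, so the lists are not independent. F13a1 had 10358 to 32194 normalised counts in the 4 libraries and 3.35 to 969 in the other 10. The whole border list summed to 15460 to 37414 in the 4 and to 3297 to 8052 in the other 10. Markers of T and B cells, oligodendrocytes, astrocytes, neurons and endothelial cells took at most 0.0462% in any library, and those of red cells at most 0.242%, the latter in a WT Control ST library. Dendritic cell markers took 0.0048% to 0.0468% in the 4 libraries and 0.00053% to 0.0018% in the other 10. Lower counts of a microglial gene in such a library cannot be told apart into fewer microglia and less RNA per cell. No Control ST library stood apart, so the serum differences of the 7 genes are also given without these 4 libraries.

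Per kilobase of the canonical transcript, the tandem-pore channels and Trpv2 had the highest levels of the 7. Kcnk6 averaged 1261 normalised counts per kilobase ± 469 (SD, n = 14 libraries), Kcnk13 900.1 ± 265, and Trpv2 757 ± 161. Kcnj2 followed at 225 ± 98.4, Trpm7 at 170.3 ± 44.4, Kcna3 at 115 ± 45.6 and Trpm2 at 78.6 ± 24.5. The median of the 12604 tested genes with a transcript length was 111, and Kcnk6 lay above 93.6% of them, Trpm2 above 41.3%. Only the step from Trpv2 to Kcnj2 held in all 14 libraries, with a median ratio of 3.48. Kcnk6 exceeded Kcnk13 in 11 of 14 libraries, Kcnk13 exceeded Trpv2 in 10, Kcnj2 exceeded Trpm7 in 9, Trpm7 exceeded Kcna3 in 13 and Kcna3 exceeded Trpm2 in 10. These neighbours therefore overlapped within their spread between libraries.

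**Figure D1:**
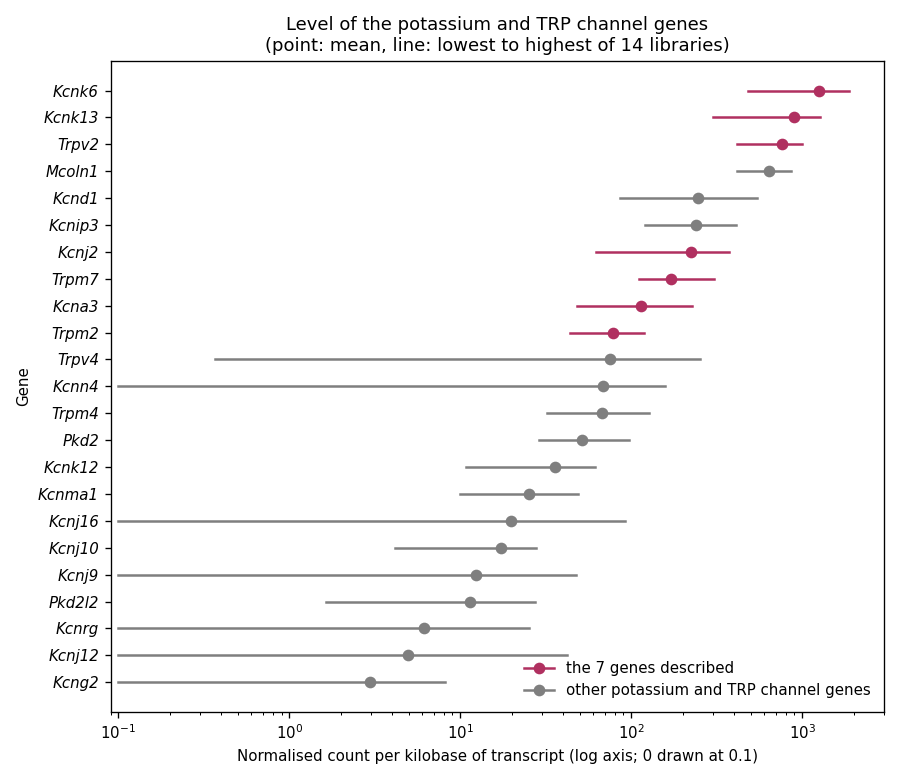
Normalised count per kilobase of transcript on a log axis for the 23 potassium and TRP channel genes that passed the filter. Each point is the mean and each line runs from the lowest to the highest of 14 libraries, with the 7 genes described in red. Kcnk6, Kcnk13 and Trpv2 have the highest means, and the red lines stay clear of 0 in every library.

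The 7 stood in a sparse set of channel genes. Of 128 potassium and TRP channel and auxiliary genes listed, 28 had deposited values and 23 were tested, so 16 tested genes were not among the 7. Only 3 of 14 K2P genes, 5 of 15 inward rectifiers, 4 of 40 voltage-gated potassium channels and none of the 7 TRPC genes had deposited values. Among the other channel genes the endolysosomal channel Mcoln1 was the highest per kilobase, at 639.8, above Kcnj2. Kcnd1, a voltage-gated potassium channel, stood at 246 and Kcnip3, which binds channels of that class, at 238. Kcnk12, the closest relative of Kcnk13, averaged 35.8 per kilobase and ranged from 66.9 to 377 normalised counts.

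Promoter windows from RefSeq on GRCm38.p6, 250 bases before to 50 after a start, were on hand for 6 of the 7 genes, all but Kcnk6. They were searched on both strands for GAGGAA (the core of the site of PU.1, the factor that defines the macrophage lineage), its extension GAGGAAGT, the E-box CACGTG, the AP-1 site TGANTCA and the TATA box TATAAA. The letters GAGGAA were found in at least 1 window of Kcna3, Kcnj2, Kcnk13 and Trpv2, and 28.3% of all 32851 windows hold it. GAGGAAGT, which contains GAGGAA, was found for Trpv2 and is held by 3.2% of all windows. CACGTG was found for Kcnj2 and Trpm7 and is held by 7.15%, and a TATAAA match occurred in a window of Trpm2 and of Trpv2 against 13.6%. The TATAAA match of Trpm2 lay on the opposite strand from position -240 relative to the start, and that of Trpv2 from position 36. TGANTCA, held by 7.81% of all windows, was found in none. The windows of Kcnk13, the gene with the smallest p below, and of Trpv2, whose normalised counts varied least, are shown with the matched letters in capitals. Trpv2 has 3 windows, of which the first is shown; the second overlaps it and holds the same GAGGAAGT and the TATAAA match, and the third holds none of the motifs. Both run in the direction of the gene, on the plus strand, at chr12:99964249-99964548 and chr11:62574236-62574535. The matches are a description of these letters and not of binding.
Kcnk13: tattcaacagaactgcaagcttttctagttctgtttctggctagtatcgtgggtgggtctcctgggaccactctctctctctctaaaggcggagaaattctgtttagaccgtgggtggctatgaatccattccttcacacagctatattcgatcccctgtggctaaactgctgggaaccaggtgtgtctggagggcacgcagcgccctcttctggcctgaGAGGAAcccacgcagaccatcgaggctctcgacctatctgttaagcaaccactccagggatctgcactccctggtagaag
Trpv2: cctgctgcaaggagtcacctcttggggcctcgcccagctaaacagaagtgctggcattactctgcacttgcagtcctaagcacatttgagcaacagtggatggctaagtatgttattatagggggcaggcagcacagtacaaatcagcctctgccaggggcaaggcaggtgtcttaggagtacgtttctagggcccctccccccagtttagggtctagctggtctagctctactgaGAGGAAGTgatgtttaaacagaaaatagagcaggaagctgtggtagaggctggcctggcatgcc

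Kcnk13 (ENSMUSG00000045404) lies at chr12:99924948-100028942 of GRCm39 on the plus strand, with 3 exons in its canonical transcript. WT Control ST libraries had 3622, 3522 and 3890.0 normalised counts, and WT K/BxN ST libraries had 1742, 2638, 2699.6 and 2970.2. TASTPM Control ST libraries had 3721, 2711 and 2844, and TASTPM K/BxN ST libraries had 924, 2464, 2042 and 2995. Every WT K/BxN ST library was below every WT Control ST library, including libraries 3 and 4 with low monocyte and neutrophil markers, while in TASTPM the groups overlapped. Such separation downwards was seen in 3.71% of all tested genes in WT, and upwards in 3.67%. In WT the log2 fold change on the log2(value + 1) scale was -0.58 ± 0.32 (SE; limma adjusted p = 0.734), and the two-sided exact permutation test gave p = 0.0571 over 35 arrangements, of which the smallest possible p is 0.0286. In TASTPM it was -0.66 ± 0.32 (limma adjusted p = 0.964), with an exact permutation p of 0.200. Averaged over genotype, Kcnk13 was at -0.62, with a 95% interval from -1.11 to -0.13. Its unadjusted limma p was 0.0159, its adjusted p 0.536 and its exact permutation p, over all arrangements within genotype, 0.0098. Of all tested genes 3.46% were lower at an unadjusted p below 0.05 in this comparison, and Kcnk13 was the only 1 of the 7 there.

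The lowest Kcnk13 count in each genotype came from the library with the most monocyte and neutrophil markers. Without the 4 libraries that stand apart the log2 fold change was -0.38 in WT, -0.31 in TASTPM and -0.34 averaged (limma adjusted p = 0.966). Counted per 10000 counts of the summed microglia markers, Kcnk13 was at 28.5, 28.9 and 30.4 in WT Control ST and at 32.5, 33.3, 23.1 and 25.2 in WT K/BxN ST. On that scale the groups overlapped, with the libraries that stand apart highest and the other K/BxN ST libraries lowest. In TASTPM the corresponding values were 30.8, 28.4 and 28.1 under Control ST and 27.8, 35, 18.8 and 27.2 under K/BxN ST.

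Kcnk6 (ENSMUSG00000046410; GRCm39 chr7:28921346-28932035, minus strand, 3 exons) had the highest level of the 7. WT libraries had counts of 5884, 4356 and 4384 under Control ST and of 2386, 3230.0, 6213 and 7817 under K/BxN ST. TASTPM libraries had 5884, 5155 and 7572 under Control ST and 2015, 3973, 7297 and 7728 under K/BxN ST. Within K/BxN ST the counts thus fell into a low pair and a high pair in each genotype, and the low pair were the libraries that stand apart. Those 4 libraries ranged from 2015 to 3973 and the other 10 from 4356 to 7817, with no overlap, as was seen in this direction in 2.51% of all tested genes. The log2 fold change was -0.13 ± 0.45 in WT (limma adjusted p = 0.95) and -0.41 ± 0.45 in TASTPM (limma adjusted p = 0.964). Without the 4 libraries it turned to 0.53 in WT and 0.29 in TASTPM, and averaged over genotype from -0.27 to 0.41 (limma adjusted p = 0.966). Per 10000 microglia marker counts, the libraries that stand apart had 40.8 to 60.7 and the other 10 had 34.3 to 74.7, so on this scale they overlapped.

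**Figure D2:**
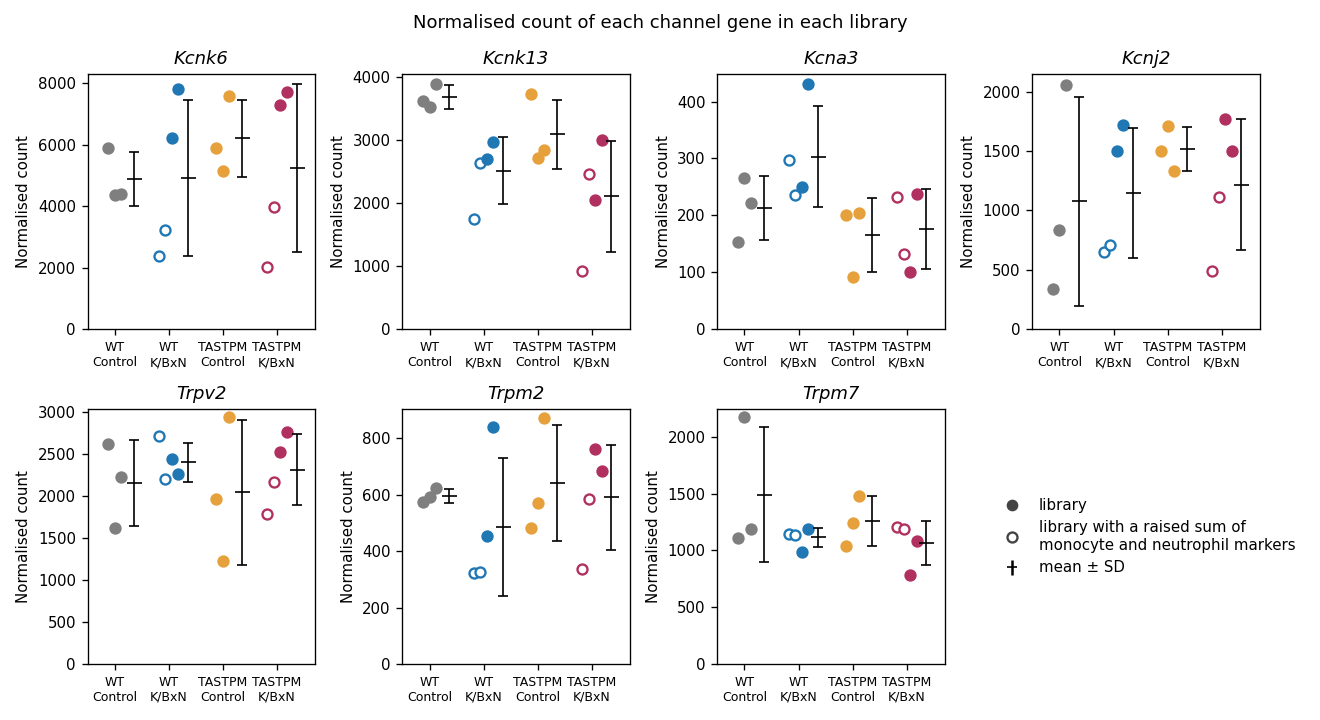
Normalised count of each gene in each of the 14 libraries by group, with the mean ± SD of the group in black. Open circles are the 4 K/BxN ST libraries with a raised sum of monocyte and neutrophil markers, in WT K/BxN ST 2 nearly all from monocyte markers. For Kcnk6 they lie at 2015 to 3973, below every filled circle, whereas for Trpm7 they lie at 1135 to 1205, among the others.

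Kcnj2 (ENSMUSG00000041695; GRCm39 chr11:110956981-110967665, plus strand, 2 exons) varied the most, with a 6.03-fold range over the 14 libraries. WT Control ST alone spanned 340.2, 839 and 2052, a range that covers all other libraries. WT K/BxN ST had 654, 713, 1503 and 1723. In TASTPM the counts were 1503, 1706 and 1335 under Control ST, and under K/BxN ST 492.9, 1109, 1770.4 and 1496. The groups overlapped in both genotypes. Its log2 fold change was 0.32 ± 0.55 in WT (limma adjusted p = 0.897) and -0.46 ± 0.55 in TASTPM (limma adjusted p = 0.964). The difference between these, -0.78 ± 0.78, had the smallest p of the 7 in the interaction of genotype and serum (limma adjusted p = 0.999). Without the libraries that stand apart the WT and TASTPM values were 0.94 and 0.11, and the difference between them was -0.83. Leaving out WT Control ST library 3 or 1 moved the WT value to 0.97 or -0.32, so 1 library set its direction.

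Kcna3 (ENSMUSG00000047959; GRCm39 chr3:106943485-106945386, plus strand) has a single exon, of which up to 524 bases overlap an exon of a predicted gene on the opposite strand. Its counts in WT were 154, 265 and 222 under Control ST and 298, 236, 249.6 and 431 under K/BxN ST. Those in TASTPM were 202, 91.0 and 204 under Control ST and 233, 133, 99.9 and 238 under K/BxN ST. Library 4 of WT K/BxN ST was the highest of all, and the serum groups overlapped in both genotypes. The log2 fold change was 0.50 ± 0.45 in WT (limma adjusted p = 0.802) and 0.08 ± 0.45 in TASTPM (limma adjusted p = 0.992), and without the libraries that stand apart 0.65 and -0.011. Its largest difference was between genotypes under K/BxN ST, where TASTPM was at 0.561 of the WT level. That log2 difference of -0.83 ± 0.42 had an unadjusted limma p of 0.0650, an adjusted p of 1.000 and an exact permutation p of 0.0571. Reads in the overlap could change the count of Kcna3 if strand was not used, and strand in the counting is not given in the sources used here.

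Trpv2 (ENSMUSG00000018507; GRCm39 chr11:62465304-62491341, plus strand, 16 exons) had the steadiest normalised counts of the 7, with a coefficient of variation of 21.2% over the 14 libraries. It stood at 2623, 1615 and 2228 in WT Control ST and at 2713, 2197, 2437 and 2260.3 in WT K/BxN ST. In TASTPM the counts were 1963, 1228 and 2946 under Control ST and 1792, 2171, 2529 and 2764 under K/BxN ST. The Control ST libraries enclosed or nearly enclosed the K/BxN ST libraries, and the libraries that stand apart lay among the rest. Its log2 fold change was 0.18 ± 0.27 in WT (limma adjusted p = 0.883) and 0.25 ± 0.27 in TASTPM (limma adjusted p = 0.964), and without those libraries 0.15 and 0.46. The interval of the averaged difference ran from -0.19 to 0.62, so a change above 1 on the log2 scale lay outside it. Per 10000 microglia marker counts Trpv2 was less steady, at 25.8 ± 12.5 (SD, n = 14) against 28.4 ± 4.17 for Kcnk13, with 27.7 to 53.9 in the libraries that stand apart and 12.9 to 29.1 in the other 10.

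Trpm2 (ENSMUSG00000009292; GRCm39 chr10:77743556-77806405, minus strand, 34 exons) had the lowest level per kilobase. WT Control ST libraries were close together at 575, 590.1 and 622, while WT K/BxN ST libraries spread over 321, 325, 453 and 838. TASTPM Control ST had 483, 569.6 and 870.4, and TASTPM K/BxN ST 335, 584, 761 and 685. Of the 4 libraries that stand apart, 3 were the lowest of the 14. The log2 fold change was -0.42 ± 0.37 in WT (limma adjusted p = 0.800) and -0.14 ± 0.37 in TASTPM (limma adjusted p = 0.980), and 0.05 and 0.22 without those 4 libraries. Up to 473 bases of its exons overlap an exon of another annotated gene.

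Trpm7 (ENSMUSG00000027365; GRCm39 chr2:126633480-126718182, minus strand, 39 exons) had counts in WT of 1107, 2174 and 1187 under Control ST and of 1147, 1135, 990.2 and 1189.6 under K/BxN ST. TASTPM Control ST libraries had 1042, 1246 and 1481, and TASTPM K/BxN ST libraries 1205, 1186, 788 and 1081. Library 2 of WT Control ST was the highest, and the groups overlapped in both genotypes. The 4 libraries that stand apart held almost the same count, 1135 to 1205. Its log2 fold change was -0.35 ± 0.25 in WT (limma adjusted p = 0.774), -0.24 ± 0.25 in TASTPM (limma adjusted p = 0.964) and -0.30 averaged (interval -0.68 to 0.08, limma adjusted p = 0.599). Without the 4 libraries it was -0.39 in WT, -0.43 in TASTPM and -0.41 averaged. Without library 2 of WT Control ST alone it was -0.043 in WT and -0.14 averaged, so most of the WT value rested on that library. Per 10000 microglia marker counts the same 4 libraries ranged from 14.3 to 36.3 and the other 10 from 7.28 to 17.8.

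None of the 7 genes was called by limma in any of the 6 comparisons, for which the adjusted p had to be below 0.05 and the size of the log2 fold change over 1, and none by edgeR or DESeq2 on the recovered reads. At an unadjusted limma p below 0.05 there was 1, Kcnk13 averaged over genotype. The background was nearly as empty, with 0.00791% of 12645 genes called in WT, which is Rarg alone, named after its values were seen. The percentage called was 0 in TASTPM, averaged over genotype, in the interaction and in both comparisons of genotypes, where 533, 1170, 385, 704 and 241 genes had an unadjusted limma p below 0.05. DESeq2 called 127 genes in WT, 18 in TASTPM and 179 on average, and edgeR called none. In TASTPM no member was separated between sera, against 2.74% of tested genes separated downwards and 2.67% upwards. Averaged over genotype, 2 of the 7 log2 fold changes were above 0 and 5 below, with a median of -0.27, while the median of all tested genes was 0.03 and 46.9% of them were below 0.

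**Figure D3:**
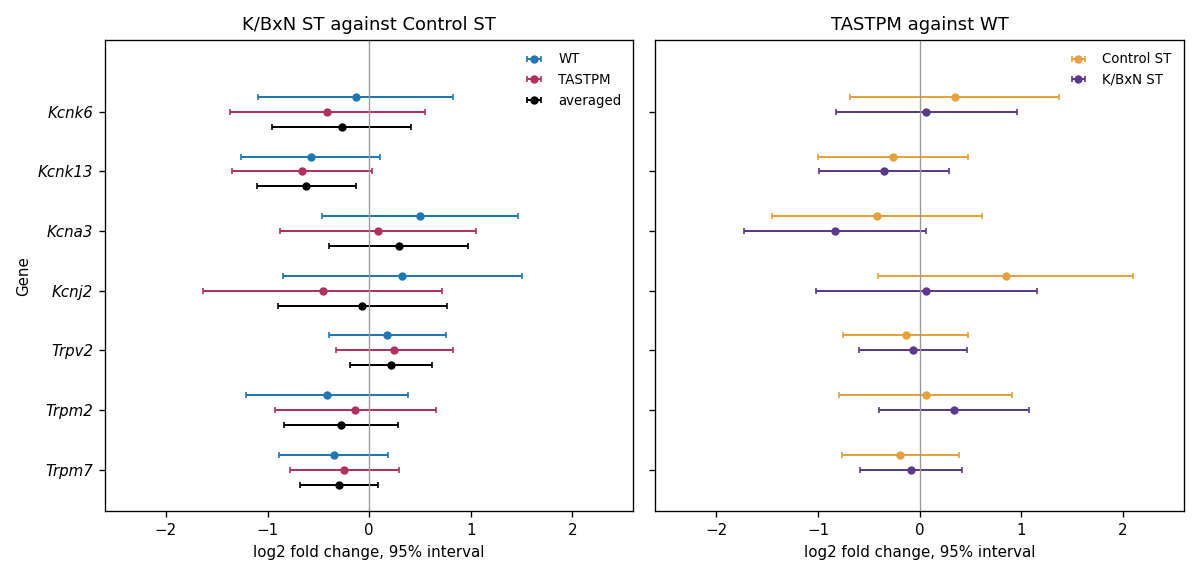
Log2 fold change with its 95% interval from limma for each gene, K/BxN ST against Control ST on the left and TASTPM against WT on the right. Kcnk13 averaged over genotype, from -1.11 to -0.13, is the only interval that leaves out 0.

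The libraries that stand apart moved the serum differences of the 7 genes to different degrees. Without them the averaged log2 fold changes of Kcnk6, Kcnj2 and Trpm2 turned from -0.27, -0.07 and -0.28 to 0.41, 0.53 and 0.13. Those of Kcnk13, Kcna3, Trpv2 and Trpm7 kept their direction and went from -0.62, 0.29, 0.21 and -0.30 to -0.34, 0.32, 0.31 and -0.41, so that Kcnk13 moved the most of these 4 and came nearer to 0. With the monocyte and neutrophil marker score as a covariate and all 14 libraries, the values were 0.41 for Kcnk6, 0.50 for Kcnj2, 0.08 for Trpm2 and -0.29 for Kcnk13. No adjusted p fell below 0.823 in either fit.

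**Figure D4:**
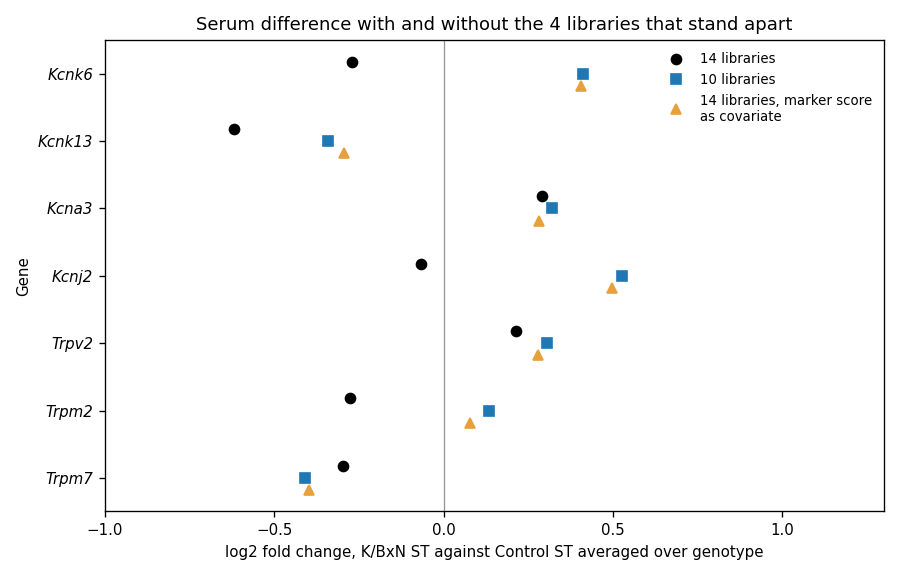
Log2 fold change of K/BxN ST against Control ST averaged over genotype with all 14 libraries (circles), without the 4 that stand apart (squares) and with the marker score as covariate (triangles). Kcnk6, Kcnj2 and Trpm2 cross 0, and Kcnk13 moves from -0.62 to -0.34.

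TASTPM and WT microglia were compared within each serum for the same 7 genes. Under Control ST the largest difference was that of Kcnj2, 0.85 ± 0.59 (limma adjusted p = 0.929), with an exact permutation p of 0.400 where 3 against 3 libraries allow no p below 0.1. Leaving out WT Control ST library 1 or 3 moved it to 0.20 or 1.49, so its size and its rank rested on 1 library. The 6 others lay between -0.42 for Kcna3 and 0.34 for Kcnk6. Under K/BxN ST, apart from Kcna3, they lay between -0.35 for Kcnk13 and 0.34 for Trpm2. None of the 7 was separated between genotypes in either serum. Of all tested genes, 4.71% had every TASTPM library lower and 4.97% every one higher under Control ST, against 0.672% and 1.16% under K/BxN ST. The intervals were wide, reaching from -1.73 to 0.06 for Kcna3 under K/BxN ST and from -0.41 to 2.1 for Kcnj2 under Control ST, so differences of 1 on the log2 scale lay within them.

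Genes that act with these channels were counted from lists written by hand. In the group upstream of THIK-1, which holds purine receptors and G protein subunits, 9 of 9 genes were tested, none was called, and averaged over genotype 7 log2 fold changes were above 0 and 2 below (median 0.17, against 0.03 over all tested genes). Without the libraries that stand apart 5 were above 0 and 4 below (median 0.0058, against 0.019). In 4 of the 9 (44.4%) each of these libraries exceeded all of the other 10, against 7.63% of all tested genes. P2ry12, the receptor that opens THIK-1 and also 1 of the microglia markers, was at 149159, 166138 and 160388 in WT Control ST and at 63550, 94752, 140287 and 139465 in WT K/BxN ST. In TASTPM it was at 165494, 124761 and 106484 under Control ST and at 34656, 79940, 107606 and 110310 under K/BxN ST. As with Kcnk6, the libraries that stand apart were lowest, at 34656 to 94752, below the 106484 to 166138 of the other 10. Its averaged log2 fold change was -0.69 (limma adjusted p = 0.536). P2ry13, the second most abundant gene of this list per kilobase, was at -0.51 (limma adjusted p = 0.574), and Gnb2, a G protein beta subunit, at 0.58 (limma adjusted p = 0.536). Gnb2 had 1373 to 1890 normalised counts in the libraries that stand apart and 613 to 1043 in the other 10.

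Of the genes that act in potassium efflux and inflammasome assembly, 8 of 8 were tested and none was called, with 4 averaged changes above 0 and 4 below, and 5 above and 3 below without the libraries that stand apart. In 3 of the 8, each of these 4 libraries exceeded all of the other 10, as in 7.63% of all tested genes. These were Il1b, an inflammasome product (510 to 3122 against 1.09 to 378 normalised counts), the protease Casp1 (1209 to 1579 against 447 to 1182) and the pore protein Gsdmd (1380 to 1685 against 609 to 1328), named after their values were seen. Pycard, the inflammasome adaptor, had 3668, 2975 and 2035 counts under Control ST in WT and 2105, 1815, 1566 and 1971 under K/BxN ST. K/BxN ST library 1 exceeded the lowest Control ST library, and the WT log2 fold change was -0.60 (limma adjusted p = 0.605). In TASTPM it was -0.13 (limma adjusted p = 0.969). Txnip and Nek7, the most abundant per kilobase of that list, were at -0.17 each on average. Nlrp3 itself ranged from 149.9 to 600.2 normalised counts over the 14 libraries.

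Among 20 tested genes of other cation routes, none was called, with 9 averaged changes above 0 and 11 below, and 11 above and 9 below without the libraries that stand apart. In 4 of the 20 (20%) each of these libraries exceeded all of the other 10, against 7.63% of all tested genes. Stim1, a calcium store sensor, was at 0.97 in WT (limma adjusted p = 0.684), where WT Control ST library 1 had 165 counts and the other 6 WT libraries 506 to 939. In TASTPM it was at -0.15 (limma adjusted p = 0.981). Tmem175, a lysosomal potassium channel, was at -0.71 in WT (limma adjusted p = 0.698), with 1817 to 2961 counts in WT Control ST and 1112 to 1806 in WT K/BxN ST, and at -0.22 in TASTPM (limma adjusted p = 0.968). Clic1 and Atp1b3 were the most abundant per kilobase, and averaged 0.14 and -0.06.

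Of the 16 tested channel genes outside the 7, none was called, and 4 averaged changes were above 0 and 12 below, with a median of -0.29, where 46.9% of all tested genes were below 0. Without the libraries that stand apart 7 were above 0 and 9 below, with a median of -0.09, against 47.9% of all tested genes below 0. Kcnd1 had 455 to 977 normalised counts in the 4 libraries that stand apart and 946 to 2878 in the other 10, and Kcnma1 had 121 to 236 against 186 to 586. Only Kcnj12, an inward rectifier, had an unadjusted limma p below 0.05 in WT, and its adjusted p there was 0.481. It was listed at 0 in all 3 WT Control ST libraries and at 20.8, 14.2, 185 and 17.4 in WT K/BxN ST, while TASTPM had 41.8, 12.2 and 0 under Control ST and 12.5, 1.90, 0 and 1.13 under K/BxN ST. Its WT groups thus did not overlap, as was seen upwards in 3.67% of all tested genes, and its TASTPM groups did overlap. Kcnj16 had 335, 246 and 1.91 in WT Control ST and 37.0 in 1 library of WT K/BxN ST, with 0 in the other 3. In TASTPM it had 135, 52.2 and 0 under Control ST and 0, 0, 139 and 62.0 under K/BxN ST. Other channel genes that were named for their level and passed the filter were not called either. Their averaged log2 fold changes were -0.61 for Kcnd1, -0.63 for Kcnma1, -0.47 for Kcnip3, -0.33 for Kcnn4 and -0.24 for Trpv4. For Trpm4, Mcoln1, Pkd2, Kcnk12 and Kcnj10 they were -0.11, -0.02, 0.00, 0.08 and 0.29. Kcnab2, a potassium channel beta subunit that failed the filter, had 279 to 746 counts in the libraries that stand apart and at most 42.2 in the other 10. Kcnd3 and Trpm3 also failed the filter, with means of 24.7 and 11.2 normalised counts.

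The genes most like each of the 7 over the 14 libraries were found by Pearson's r of the log2 values, which is a description, since the libraries share their group and their marker content. Among the genes most like Kcnk6 were Zdhhc14 (r = 0.97, Spearman's rho = 0.93) and Maml2 (r = 0.95, rho = 0.89). Within the 10 libraries that do not stand apart, r of Kcnk6 was 0.92 with Zdhhc14 and 0.71 with Maml2. Kcnk13 was closest to Ecscr, Cxxc5 and Marcks, at r of 0.96, 0.95 and 0.94 over 14 libraries and of 0.81, 0.76 and 0.83 over the 10. Kcna3 was closest to Zfp263 (r = 0.90), Kcnj2 to Smpd5 (r = 0.96), Trpv2 to Tollip (r = 0.89), Trpm2 to Zyg11b (r = 0.89) and Trpm7 to Pde4b (r = 0.86). Among the 7 themselves the highest r over the 14 libraries was that of Kcnk6 and Trpm2, 0.84, and it was 0.55 over the 10, where Kcnk6 and Trpv2 had 0.64. Kcnk6 and Kcnk13 had r = 0.63 over the 14 and -0.56 over the 10, so the likeness of the 2 K2P genes rested on the libraries that stand apart.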

How the data were processed

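RNA was amplified with SMART-Seq and, per the authors, checked with FastQC 0.11.9, aligned to GRCm39 with HISAT2 2.1 and counted per gene with featureCounts 1.5.2. The authors deposited normalised counts, a signal scaled by 1 factor per library, so raw counts had to be recovered. All values (100%) came out as whole reads, within 0.05 of a read. The 7 duplicate identifiers among 14336 entries, identical in value, were dropped, and 33 genes lack a symbol.

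Libraries were placed by the group above their column. Only in TASTPM K/BxN ST do the column numbers join the sample labels, so libraries of the other groups are numbered in the order of the columns. Per the study's methods replicates are individual mice, 3 or 4 per sequenced group, although the labels name no animals. Within each group, where pairs of libraries were compared, no library was a repeat of another.

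Genes reaching 10 reads in 7 or more of the 14 libraries were fitted with limma 3.58.1 in R 4.3.3, on log2(value + 1), with a variance trend and 1 fit to the 4 groups. edgeR 4.0.16 and DESeq2 1.42.0 were run on the recovered reads. Adjusted p is Benjamini-Hochberg over 12645 genes. Single genes also had two-sided exact permutation tests of the difference of mean log2 values. Intervals of log2 fold changes are limma's 95% intervals and rest on the spread between libraries, while the floor for a detected marker (3 reads) covers counting error only.

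Libraries stand apart where summed monocyte and neutrophil markers exceed 5 times the median of the 14. Genes named beside the 7 are the 2 most abundant per kilobase of each list and the list genes with an unadjusted p below 0.05 in WT, TASTPM or averaged, at most 8. Some genes that these rules would name are not reported here. The 7 genes, the lists and the tests were chosen with earlier results of these data known. Positions are from GENCODE vM39 on GRCm39, a later annotation than that of the authors. Levels per kilobase use the canonical transcript. Alternatives covered the test, filter, pseudocount (0.5 and 10), scaling, variance prior, array weights, 1 genotype alone, a marker score as covariate, and the omission of libraries. Scaling to the microglia markers was added after seeing the data.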

Additional observations from a re-analysis of the deposited data

How the results depend on the processing

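None of the 7 genes was called in any comparison under any alternative, and the smallest adjusted p was 0.168, for Kcnk13 averaged over genotype with array weights. In the interaction it was 0.974, for Trpm2. Of 446 values of the 7 genes, which for the interaction hold Kcnj2 alone, under settings other than the omission of 1 library, 37 changed direction, and of 308 values with 1 library left out, 30 did. The averaged value of Kcnk13 stayed below 0 throughout, between -0.73 and -0.09. No paired analysis was possible because the labels give the groups no shared replicate numbers.

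Counts of all genes called moved with the tool. In WT, against 1 by limma, edgeR, a pseudocount of 10, 1 genotype alone, the marker score as covariate and the omission of the libraries that stand apart each gave 0, the robust fit with no trend 2, array weights 8 and DESeq2 127. DESeq2 called 18 genes in TASTPM, 179 averaged, 12 in the interaction and 41 between genotypes under Control ST. Averaged over genotype, the robust fit called 1 gene and array weights 10, and under Control ST the covariate and the omission of the libraries that stand apart each called 1. With 1 library left out the counts ran from 0 to 17 in WT (17 without WT Control ST library 3, 14 without library 2), from 0 to 1 in TASTPM, from 0 to 9 averaged, from 0 to 3 in the interaction and from 0 to 11 between genotypes under Control ST. The cause was not tested.

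Log2 fold changes of the 7 genes that changed direction follow. In WT, Kcnk6 was at 0.018 with edgeR, 0.0083 with DESeq2 and 0.50 with the covariate, and Kcnj2 at -0.42 with array weights. In TASTPM the covariate gave 0.31 for Kcnk6, 0.14 for Kcnj2 and 0.24 for Trpm2, and array weights gave -0.042 for Kcna3. Averaged, the covariate gave 0.41, 0.50 and 0.079 for Kcnk6, Kcnj2 and Trpm2. Under K/BxN ST, Trpm7 between genotypes was at 0.033 with array weights. Without the libraries that stand apart, WT had 0.53 for Kcnk6 and 0.050 for Trpm2, and TASTPM had 0.29 for Kcnk6, -0.011 for Kcna3, 0.11 for Kcnj2 and 0.22 for Trpm2. The averaged values were 0.41, 0.53 and 0.13 for Kcnk6, Kcnj2 and Trpm2, and Trpv2 between genotypes under K/BxN ST was at 0.17.

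Scaling to the summed microglia markers, chosen after seeing the data, moved the median of all genes to 0.57 in WT, 0.54 in TASTPM and 0.56 averaged, so values are to be read against it. In WT, Kcnk6, Trpm2 and Trpm7 were at 0.39, 0.11 and 0.17. In TASTPM, Kcnk6, Kcnj2, Trpm2 and Trpm7 were at 0.13, 0.077, 0.40 and 0.29, and averaged at 0.26, 0.46, 0.25 and 0.23. All of these lay below the shifted median. Between genotypes the median moved to 0.29 under Control ST, with Trpv2 at 0.12 and Trpm7 at 0.063, and to 0.27 under K/BxN ST, with Trpv2 at 0.20 and Trpm7 at 0.18. Library totals moved the median in WT to 0.11.

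With 1 library left out, the ranges that crossed 0 were, in WT, -0.41 to 0.16 for Kcnk6, -0.32 to 0.97 for Kcnj2 and -0.014 to 0.34 for Trpv2. In TASTPM they were -0.30 to 0.32 for Kcna3, -0.074 to 0.56 for Trpv2 and -0.32 to 0.12 for Trpm2, and averaged -0.39 to 0.26 for Kcnj2. Between genotypes under Control ST they were -0.44 to 0.19 for Trpv2, -0.18 to 0.24 for Trpm2 and -0.37 to 0.12 for Trpm7. Under K/BxN ST they were -0.23 to 0.47 for Kcnk6, -0.56 to 0.0034 for Kcnk13, -0.16 to 0.45 for Kcnj2, -0.16 to 0.049 for Trpv2 and -0.15 to 0.055 for Trpm7. Of 36 values of the 7 genes, 33 moved by over 1.5 times with at least 1 library left out. There were 3 or 4 libraries per group, and the lowest normalised count of the 7 genes was 91.0.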
